A study of Mus musculus with 6 samples.

Results

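Aminoacyl-tRNA synthetases are the enzymes that load each transfer RNA (tRNA) with its amino acid. Their mRNA levels were examined in cells sorted at the early large pre-B stage (early LPre-B) from mouse bone marrow. The members were chosen by name, as 19 cytoplasmic and 16 mitochondrial synthetase genes, and all 35 of them had a row among the 13426 genes of the deposited table. Genes whose names end in 2 encode mitochondrial enzymes, and the others are counted here as cytoplasmic, although *Gars1* and *Kars1* are known to supply both compartments.

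Large cells were gated as negative for lineage markers, surface IgM and CD2, with B220 and CD43 among the positive markers. RNA was sequenced from 3 control (Ctrl) and 3 *Upf1*-cKO libraries. Every mouse carried the *Upf1* Flox/Flox alleles; Ctrl mice were Mb1 +/+ and *Upf1*-cKO mice were Mb1 Cre/+, so that Cre was made from the *Cd79a* (Mb1) locus in B lineage cells. The mice were adult, age-matched and of both sexes, and the labels do not say whether a library came from a single animal. UPF1 is an RNA helicase required for nonsense-mediated mRNA decay (NMD), and the comparison asks how each transcript differed when *Upf1* was deleted at this stage.

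Cytoplasmic and mitochondrial protein synthesis use largely separate sets of synthetases, all of them encoded in the nucleus. In the cytoplasm, several synthetases join a multisynthetase complex held together by the scaffold proteins AIMP1, AIMP2 and AIMP3 (*Eef1e1*). When a tRNA stays uncharged, the kinase GCN2 (*Eif2ak4*) phosphorylates eIF2α, which favours translation of the transcription factor ATF4, and many cytoplasmic synthetase genes are known ATF4 targets. Large pre-B cells are dividing cells with a high demand for protein synthesis.

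Levels are given as normalised reads, which are reads scaled by an effective library size that the authors set, and recovered reads totalled between 9732498 and 11006834 per library. The row of *Upf1* itself was at 260, 203 and 259 normalised reads in Ctrl libraries 1, 2 and 3 and at 308, 283 and 300 in the libraries labelled *Upf1*-cKO. It was therefore not lower in them (log2 fold change 0.31, adjusted p 0.00696), and this row does not resolve the removed exons, so directions are those of the cKO-labelled libraries. The log2 fold change of *Upf1* was 0.19 without Ctrl library 2, and its call was lost without the intensity trend and with median centring (adjusted p at most 0.0707). *Cd79a*, the locus that carries Cre, stood between 213 and 234 in Ctrl and between 71.6 and 75.2 in cKO-labelled libraries, so the libraries labelled as carrying Cre were those with less of it. All 7 early B lineage markers reported, *Cd79a* among them, had a row, and their summed level was between 1807 and 1992 in Ctrl and between 1628 and 1681 in cKO-labelled libraries. Of these, *Cd79a* and *Ptprc* were lower (means of 277 in Ctrl and 154 in cKO-labelled libraries for *Ptprc*), *Vpreb1* was higher (171 and 226), and *Cd79b*, *Igll1*, *Pax5* and *Ebf1* were not called. The shares of the 7 were 14.3% higher and 28.6% lower, beside 27.7% and 25.0% of all genes. Of 3 T cell markers none had a row. The 8 neutrophil and myeloid markers (*Elane*, *Mpo*, *S100a8*, *S100a9*, *Ltf*, *Camp*, *Ngp* and *Lyz2*) all had one. In the cKO-labelled libraries 5 of them (62.5%) were called higher, beside 27.7% of all genes. That count was 3 without Ctrl library 2, 2 without Ctrl library 3, cKO library 1 or cKO library 2, 1 without cKO library 3, and 7 with voom, without the intensity trend or when scaled to total reads. Their sum ranged from 39.8 to 144 in Ctrl libraries, with the highest value in Ctrl library 1, and from 372 to 510 in cKO-labelled libraries. The sum of 4 markers of later B cell stages (*Cd22*, which made up most of it, *Il2ra*, *Cd2* and *Ms4a1*) went the other way, standing between 226 and 227 in Ctrl and between 27.4 and 39.5 in cKO-labelled libraries, while *Ms4a1* was not called (means of 3.24 and 2.93, adjusted p 0.627). The part of these marker differences in the synthetase results was not tested.

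Synthetase mRNAs were mostly higher in the cKO-labelled libraries. Of the 35 genes, 23 were called higher (limma, adjusted p below 0.05), against 27.7% of all genes, and 6 were called lower, against 25.0% of all genes. The share called higher was 65.7%. The median log2 fold change of the 35 genes was 0.39, beside 0.01 for all genes. With libraries scaled to total reads, 13 cytoplasmic and 12 mitochondrial genes were higher and 1 of each class was lower, where all genes were called higher in 5169 cases and lower in 1936. With median centring, 10 genes of each class were higher and 5 cytoplasmic and 3 mitochondrial genes were lower, where all genes were called higher in 2992 cases and lower in 4355. In 22 genes every cKO-labelled library was above every Ctrl library, which held for 30.9% of all genes, and in 6 genes every cKO-labelled library was below, which held for 28.0% of all genes. The 35 genes took between 0.322% and 0.36% of recovered reads in Ctrl libraries and between 0.499% and 0.512% in cKO-labelled libraries, a share that is not scaled by the effective library size. In sorted bulk samples, more RNA per cell cannot be told apart from more cells of a kind that holds more of it.

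**Figure D1:**
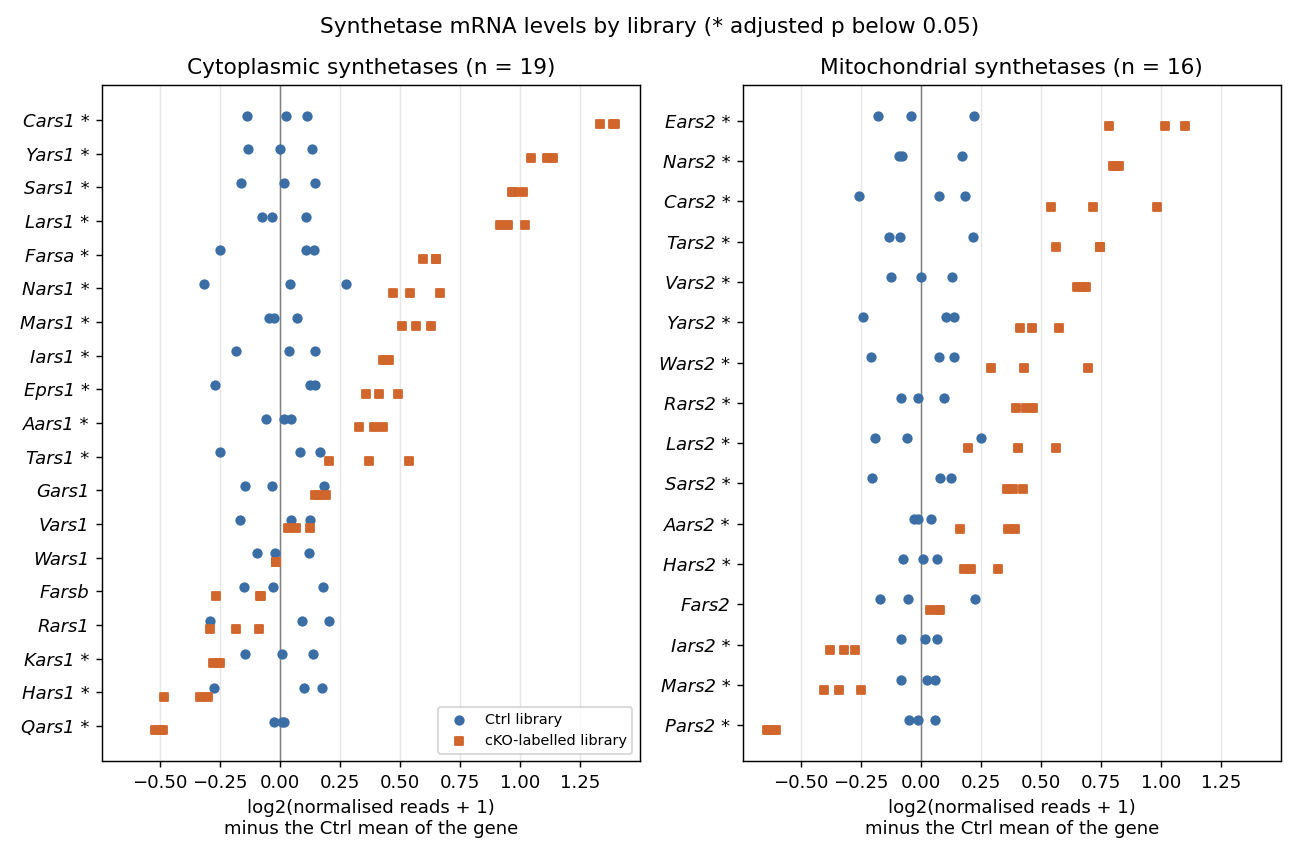
Each row is a synthetase gene and each point a library, with the log2(normalised reads + 1) value minus the gene's mean over the 3 Ctrl libraries on the x axis, Ctrl as circles and cKO-labelled as squares. *Cars1* and *Ears2* stand farthest to the right of the Ctrl libraries in their classes and *Qars1* and *Pars2* farthest to the left.

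Among the 19 cytoplasmic genes, 11 were called higher, 3 lower and 5 neither way, with a median log2 fold change of 0.38. *Cars1* (Entrez ID 27267, chromosome 7, 143557230 to 143600090, GRCm38), the cysteinyl-tRNA synthetase, changed most. It was at 47.3, 53.1 and 56.5 normalised reads in Ctrl libraries and at 138, 133 and 139 in cKO-labelled libraries, a 2.61-fold higher level (log2 fold change 1.37, SE 0.086, adjusted p 3.91e-10). The groups were far apart, with the lowest cKO-labelled library far above the highest Ctrl library. *Cars1* shares 3.21% of its exon bases with *Gm15580* on the opposite strand. The tyrosyl enzyme gene *Yars1* (Entrez ID 107271, chromosome 4, 129189734 to 129219240) stood at 93, 112 and 102 in Ctrl and at 226, 212 and 222 in cKO-labelled libraries. Its log2 fold change was 1.10 (SE 0.082), with an adjusted p of 3.02e-09.

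The mRNAs of the seryl and leucyl enzymes rose by similar amounts. *Sars1*, whose enzyme loads serine, also onto the tRNA that later carries selenocysteine, went from 104, 129 and 118 to 236, 229 and 230 normalised reads (log2 fold change 0.98, SE 0.084, adjusted p 1.73e-08). *Lars1*, whose enzyme also serves as a leucine sensor for mTORC1, went from 146, 166 and 150 to 298, 291 and 313 (log2 fold change 0.96, SE 0.076, adjusted p 6.64e-09). In these 4 genes the log2 fold change stayed at or above 0.85 under every alternative run.

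Smaller rises followed in the other 7. *Farsa* went from 67.5, 86.8 and 89 to 127, 122 and 127 normalised reads (log2 fold change 0.63, adjusted p 2.45e-05), while *Farsb*, which encodes the other subunit of the same phenylalanyl enzyme, was at 54.3, 68.6 and 59.2 in Ctrl and at 56.9, 57.1 and 50.1 in cKO-labelled libraries (log2 fold change -0.14, adjusted p 0.243). The *Farsb* log2 fold change was -0.22 without Ctrl library 1, -0.054 without Ctrl library 2, -0.082 without cKO library 3, and -0.25 with median centring, where it was called lower (adjusted p 0.043). *Farsb* shares 9.47% of its exon bases with *Sgpp2* on the opposite strand. The levels of the subunit genes per kilobase of transcript were 24.3 for *Farsa* and 29.8 for *Farsb* in Ctrl, and 37.5 and 26.9 in cKO-labelled libraries. *Mars1*, the methionyl enzyme gene, rose from 114, 124 and 116 to 183, 168 and 175 (log2 fold change 0.56, adjusted p 6.33e-06). It shares 68 exon bases, 1.99% of its exon length, with *Ddit3* on the opposite strand, and *Ddit3* itself rose from between 9.35 and 10.9 to between 108 and 111. Reads were mapped as unstranded and the counting is not stated to use strand, so reads in that stretch cannot be assigned to either gene. *Nars1* for asparagine rose from 127, 163 and 192 to 231, 252 and 220 (log2 fold change 0.56, adjusted p 0.00242), and its Ctrl libraries were the most scattered of these 7 genes relative to their mean.

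*Iars1* for isoleucine (log2 fold change 0.44, adjusted p 0.000213), *Eprs1* for glutamate and proline (0.42, adjusted p 0.00138), *Aars1* for alanine (0.38, adjusted p 0.000237) and *Tars1* for threonine (0.37, adjusted p 0.00841) completed the group that was higher. *Iars1* was at 173, 218 and 202 in Ctrl and at 265, 270 and 268 in cKO-labelled libraries. *Tars1* was the least stable of the 11, since its adjusted p was 0.0675 without cKO library 2, 0.0705 without the intensity trend and 0.0582 with median centring, and its log2 fold change was 0.24 without Ctrl library 1. *Aars1* shares 14.3% of its exon bases with *Exosc6*, so its count is uncertain.

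The genes called lower were *Qars1*, *Hars1* and *Kars1*, for glutamine, histidine and lysine. *Qars1* (Entrez ID 97541, chromosome 9, 108508005 to 108515941) was at 129, 132 and 133 normalised reads in Ctrl and at 92.6, 93.3 and 91.3 in cKO-labelled libraries, so that each group spanned under 5 normalised reads. Its log2 fold change was -0.50 (SE 0.076), with an adjusted p of 2.18e-05. *Hars1* was at 83.2, 114 and 108 against 71.7, 81.7 and 79.8 (log2 fold change -0.37, adjusted p 0.00598), so that Ctrl library 1 lay just above the highest cKO-labelled library. *Kars1* was at 169, 206 and 188 against 156, 157 and 154 (log2 fold change -0.26, adjusted p 0.0107). Only *Qars1* of these kept its call when libraries were scaled to total reads, where the median of all genes moved to 0.19; *Hars1* then stood at -0.17 on the log2 scale (adjusted p 0.207) and *Kars1* at -0.06 (adjusted p 0.576). Without the intensity trend the adjusted p was 0.0596 for *Hars1* and 0.067 for *Kars1*, and with quantile normalization it was 0.09 for *Kars1*.

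*Vars1*, *Gars1*, *Wars1*, *Rars1* and *Farsb* passed in neither direction. *Vars1* for valine was at 699, 738 and 603 in Ctrl and at 709, 694 and 739 in cKO-labelled libraries (log2 fold change 0.075, adjusted p 0.438), but was called higher with quantile normalization (0.29, adjusted p 0.00779) and when scaled to total reads (0.28, adjusted p 0.00615). *Wars1* for tryptophan, a gene known to respond to interferon, was at 67.1, 78.1 and 70.7 against 70.9 in each cKO-labelled library (log2 fold change -0.019, adjusted p 0.873). *Gars1* for glycine had a log2 fold change of 0.16 (adjusted p 0.112), but 0.26 (adjusted p 0.0105) without Ctrl library 2 and 0.089 (0.354) without Ctrl library 1. It was called higher with quantile normalization (0.27, adjusted p 0.0117) and when scaled to total reads (0.37, adjusted p 0.00177). *Rars1* for arginine had a log2 fold change of -0.19 (adjusted p 0.161), but -0.33 (adjusted p 0.00296) without Ctrl library 1, -0.086 (0.52) without Ctrl library 3 and -0.30 (0.0338) with median centring.

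Genes called higher and lower were found both inside and outside the multisynthetase complex. Of its 7 members in the list (*Eprs1*, *Iars1*, *Kars1*, *Lars1*, *Mars1*, *Qars1* and *Rars1*), 4 were higher and 2 lower, with a median log2 fold change of 0.42, and the share called lower was 28.6% beside 25.0% of all genes. Of the 12 cytoplasmic genes outside it, 7 were higher and 1 lower, with a median of 0.38. The difference between these sets was not tested. Within the complex the values ran from -0.50 in *Qars1* to 0.96 in *Lars1*.

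Mitochondrial synthetase mRNAs were called higher in 12 of 16 genes and lower in 3, with a median log2 fold change of 0.41. The largest rise was in *Ears2* (Entrez ID 67417, chromosome 7, 122034162 to 122067094), the mitochondrial glutamyl enzyme gene, at 10.4, 12.7 and 9.38 normalised reads in Ctrl and 22.8, 19.2 and 24.2 in cKO-labelled libraries (log2 fold change 0.97, SE 0.15, adjusted p 1.95e-05). It had between 94 and 287 reads per library, among the lowest counts of the 35 genes. *Nars2* for asparagine went from 24.4, 29.2 and 24.2 to 46.1, 45.8 and 46.5 (log2 fold change 0.81, SE 0.11, adjusted p 3.66e-06), and the cKO-labelled libraries lay within 1 normalised read of each other.

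*Cars2*, whose cysteinyl enzyme is also known to make cysteine persulfides, went from 25.5, 27.6 and 20 to 48.7, 35.6 and 40.3 normalised reads (log2 fold change 0.74, adjusted p 0.000126). *Tars2* for threonine went from 80.6, 103 and 83.2 to 149, 131 and 149 (log2 fold change 0.68, adjusted p 8.85e-06). *Vars2* for valine went from 54.4, 45.4 and 49.6 to 78.5, 80.7 and 79.7 (log2 fold change 0.67, adjusted p 5.86e-06). In each of these 3 genes the groups did not overlap. On the opposite strand, *Vars2* shares 8.52% of its exon bases with *Gm20483*, *Cars2* 5.83% with *Naxd* and *Nars2* 4.08% with *C230038L03Rik*, so part of their reads could not be assigned.

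The other 7 mitochondrial genes called higher had log2 fold changes from 0.24 to 0.49. They were *Yars2* (0.49, adjusted p 0.00386), *Wars2* (0.47, adjusted p 0.0137), *Rars2* (0.43, adjusted p 0.00176), *Sars2* (0.39, adjusted p 0.00698), *Lars2* (0.39, adjusted p 0.00859), *Aars2* (0.31, adjusted p 0.0199) and *Hars2* (0.24, adjusted p 0.045). *Lars2*, at 93.3, 75.1 and 68.3 in Ctrl and 104, 89.8 and 116 in cKO-labelled libraries, was the only gene called whose groups overlapped. The call of *Hars2* was lost under the replicate block (adjusted p 0.0588) and without any single library other than Ctrl library 3, with adjusted p from 0.0553 to 0.176. It was also lost with DESeq2 (0.0957), without the intensity trend (0.0709), with median centring (0.267) and with quantile normalization (0.0593). That of *Aars2* was lost without cKO library 1 (adjusted p 0.0808) or 2 (0.0898), with median centring (0.12) and with quantile normalization (0.0505). *Wars2* lost it without Ctrl library 3 (adjusted p 0.0633) or cKO library 3 (0.0972) and with quantile normalization (0.0679). *Lars2* lost it without Ctrl library 2 (adjusted p 0.0543) or cKO library 3 (0.0601) and without the intensity trend (0.0687).

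*Pars2*, *Iars2* and *Mars2* were lower, and *Fars2* passed in neither direction. *Pars2* (Entrez ID 230577, chromosome 4, 106651069 to 106655282), the mitochondrial prolyl enzyme gene, was at 14.7, 14.3 and 15.5 normalised reads in Ctrl and at 9.42, 9.24 and 9.15 in cKO-labelled libraries (log2 fold change -0.63, SE 0.14, adjusted p 0.00108). *Iars2* was at 89.6, 96.1 and 99.5 against 72.7, 75.8 and 78.4 (log2 fold change -0.33, adjusted p 0.00278), and it shares 22.9% of its exon bases with *Rab3gap2* on the opposite strand. *Mars2* was at 40.3, 41.3 and 37.4 against 33.2, 29.7 and 31.1 (log2 fold change -0.33, adjusted p 0.0102). With libraries scaled to total reads, *Iars2* (adjusted p 0.262) and *Mars2* (adjusted p 0.285) lost their calls and *Pars2* did not. *Fars2* for phenylalanine had a log2 fold change of 0.062 (adjusted p 0.67), and it shares 8.72% of its exon bases with *Nrn1* on the opposite strand.

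The classes were then compared by amino acid, since both genes of a pair load the same amino acid in different compartments. The log2 ratio was the difference of their log2(value + 1) values within a library, so the added 1 affects it for genes of low level. With 0.1 added in its place, the difference between groups in the *Eprs1* to *Ears2* ratio moved from -0.55 to -0.61. There were 16 pairs, with *Eprs1* set against both *Ears2* and *Pars2*. The ratio was higher in every cKO-labelled library than in every Ctrl library in 8 pairs, lower in 5 and overlapping in 3. With 3 libraries against 3, the exact permutation test (two-sided) cannot go below p 0.1, which these 13 pairs reached (adjusted p 0.123), so no pair could pass. No background of other gene pairs was computed for these counts.

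The shift toward the cytoplasmic gene was largest for *Eprs1* over *Pars2*, whose log2 ratio was 4.15, 4.59 and 4.50 in Ctrl and 5.43, 5.53 and 5.41 in cKO-labelled libraries (difference 1.04). The *Mars1* to *Mars2* log2 ratio was 1.48, 1.57 and 1.61 against 2.43, 2.46 and 2.45 (difference 0.89). For *Iars1* over *Iars2* it was 0.94, 1.18 and 1.01 against 1.85, 1.82 and 1.76 (difference 0.77). In these 3 pairs the cytoplasmic gene was called higher and the mitochondrial gene lower. In *Cars1* with *Cars2*, *Yars1* with *Yars2*, *Sars1* with *Sars2* and *Lars1* with *Lars2* both genes were called higher, and the differences of the log2 ratio lay between 0.57 and 0.63. For *Farsa* with *Fars2* the difference was 0.57, and 0.33 without Ctrl library 1.

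The opposite shift was seen for histidine, arginine, valine, tryptophan and for glutamate. The *Hars1* to *Hars2* log2 ratio was 1.02, 1.55 and 1.34 in Ctrl and 0.50, 0.80 and 0.79 in cKO-labelled libraries (difference -0.61). *Hars1* and *Hars2* are neighbours and share 195 exon bases on opposite strands, so part of the reads of either could not be assigned. The log2 ratio of *Rars1* to *Rars2* was 1.62, 2.08 and 2.0 against 1.32, 1.38 and 1.14 (difference -0.62), and that of *Vars1* to *Vars2* was 3.66, 3.99 and 3.58 against 3.16, 3.09 and 3.20 (difference -0.60). For *Wars1* with *Wars2* the difference was -0.49 and for *Eprs1* with *Ears2* it was -0.55. The alanine, asparagine and threonine pairs overlapped, with differences of 0.075, -0.25 and -0.32. These became 0.032 without cKO library 3, -0.07 without Ctrl library 3 and -0.20 without cKO library 3.

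**Figure D2:**
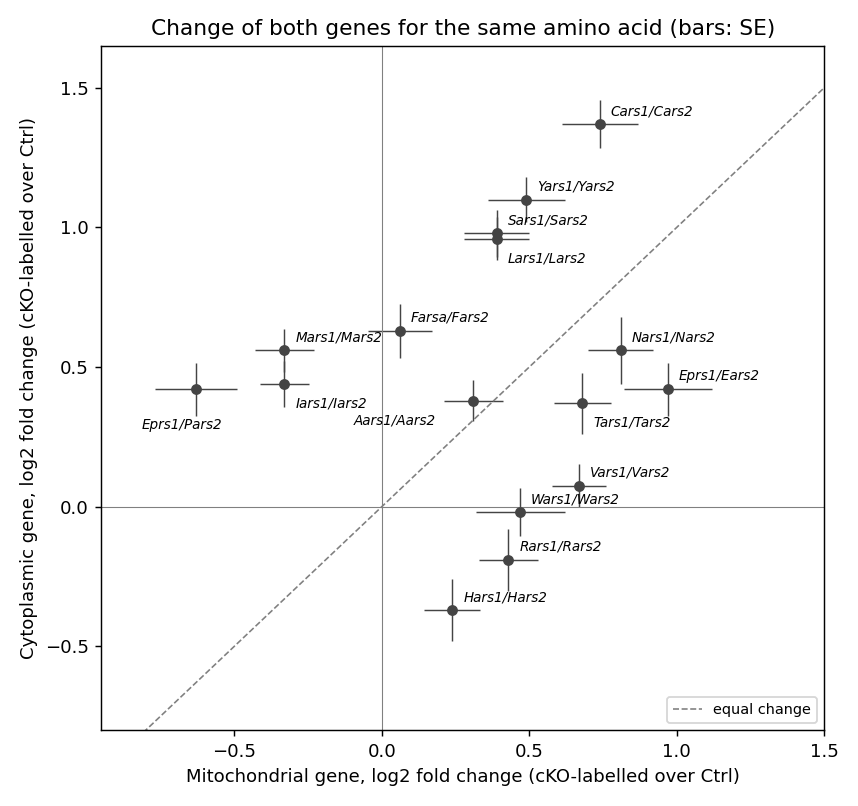
Each point is a pair of genes for the same amino acid, with the log2 fold change of the mitochondrial gene on the x axis, that of the cytoplasmic gene on the y axis, and SE as bars (n = 3 libraries per group). Points above the dashed line of equal change moved toward the cytoplasmic gene, with *Eprs1*/*Pars2*, *Mars1*/*Mars2* and *Iars1*/*Iars2* at upper left, and *Hars1*/*Hars2* lies lowest.

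Levels were compared between genes as normalised reads per kilobase of the longest annotated transcript. *Vars1* had the highest level of the 35 in Ctrl libraries, at 164 ± 16.8 (SD, n = 3), followed by *Kars1* at 77.6 ± 7.57 and *Gars1* at 74 ± 8.84, which did not differ beyond their spread. The lowest levels were those of *Ears2* at 2.21 ± 0.346 and *Wars2* at 2.7 ± 0.363, which were also within their spread of each other. Cytoplasmic genes ranged from 16.2 (*Cars1*) to 164 and mitochondrial genes from 2.21 to 24.6 (*Tars2*) in Ctrl libraries. *Cars1*, the lowest cytoplasmic gene in Ctrl, reached 42.4 ± 0.879 in cKO-labelled libraries. *Tars2* was the only mitochondrial gene above its cytoplasmic partner in this measure, in every library, at 24.6 ± 3.43 against 18.9 ± 2.82 for *Tars1* in Ctrl and at 39.6 ± 2.92 against 24.4 ± 2.84 in cKO-labelled libraries. The annotated *Mars2* transcript of 11294 bases is the longest of the set, and its level of 3.51 depends on that length.

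**Figure D3:**
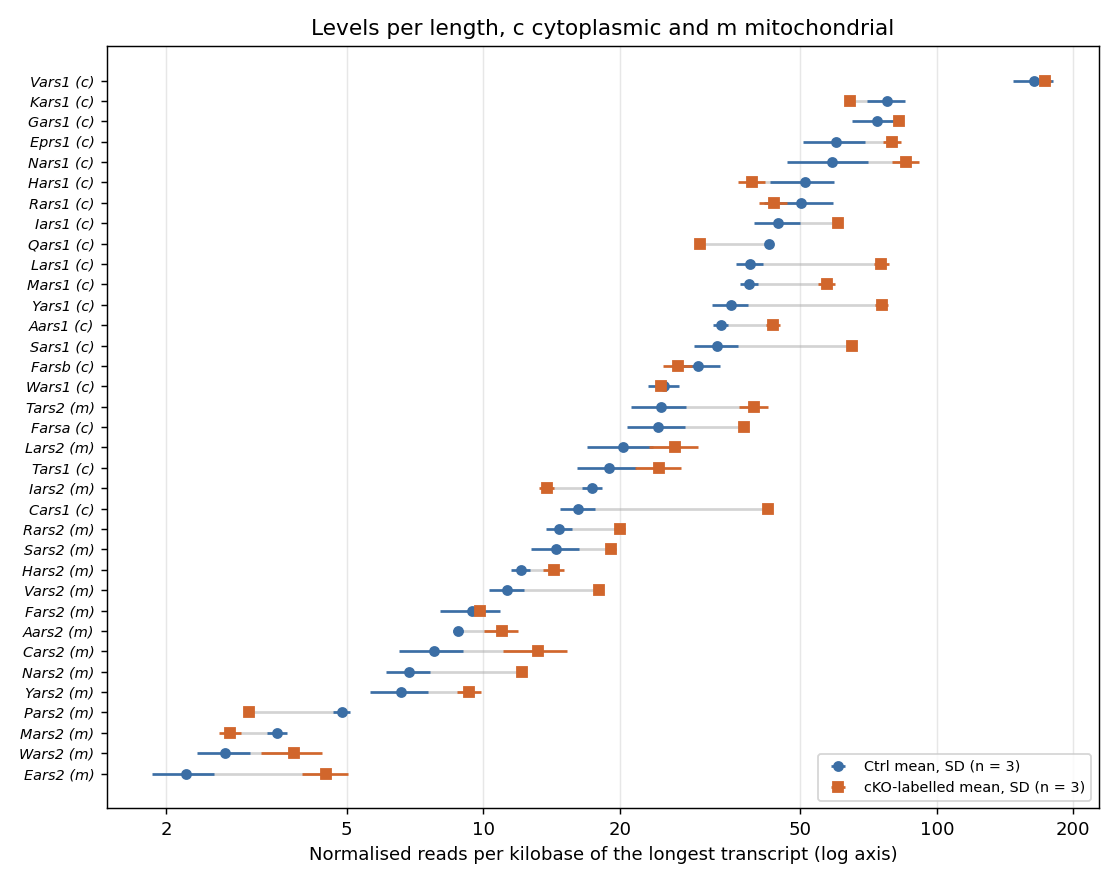
Mean normalised reads per kilobase of the longest transcript on a log axis, for each of the 35 genes, in Ctrl (circles) and cKO-labelled (squares) libraries, with SD over 3 libraries as bars and genes ordered by the Ctrl mean. *Vars1* is highest and *Ears2* lowest in Ctrl, and *Cars1* moves farthest to the right.

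Summed over genes, cytoplasmic synthetases held 2844, 3347 and 3133 normalised reads in Ctrl libraries and 3943, 3969 and 3925 in cKO-labelled libraries, a ratio of means of 1.27. The mitochondrial sum was 624, 629 and 591 against 799, 749 and 807, a ratio of 1.28. Neither sum overlapped between groups. Ctrl library 1 had the most of the neutrophil and myeloid markers among the Ctrl libraries. It had the lowest cytoplasmic sum but not the lowest mitochondrial sum, and a link of either sum to the markers was not tested. Leaving out Ctrl library 1 gave 11 cytoplasmic genes called higher and 4 lower, and 11 mitochondrial genes higher and 3 lower.

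Genes that work beside the synthetases were described from lists of related functions. None of the 3 scaffold genes of the multisynthetase complex was called higher. *Aimp2* was lower, at 25.4, 27.5 and 23 normalised reads in Ctrl and 20.4, 18.3 and 17.9 in cKO-labelled libraries (log2 fold change -0.40, adjusted p 0.00914), while *Aimp1* had a log2 fold change of -0.13 (adjusted p 0.453) and *Eef1e1* of -0.058 (adjusted p 0.713). The call of *Aimp2* was lost when libraries were scaled to total reads (adjusted p 0.151). Over the alternatives *Aimp1* ran from -0.28 to 0.065 and *Eef1e1* from -0.17 to 0.14 on the log2 scale, and neither was called in any of them. Of the complex members, *Lars1*, *Mars1*, *Iars1* and *Eprs1* were higher, *Qars1* and *Kars1* were lower and *Rars1* was not called.

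Among 11 genes for other steps of charging, formylation and quality control, 2 were higher, 2 lower and 7 neither, or 18.2% in each direction beside 27.7% and 25.0% of all genes. Mitochondria make glutaminyl-tRNA indirectly: *Ears2* first loads glutamate, and the amidotransferase encoded by *Qrsl1*, *Gatb* and *Gatc* converts it. Beside the rise of *Ears2*, *Qrsl1* was lower, at 36.4, 40.6 and 42.6 against 23.7, 27.8 and 28.4 normalised reads (log2 fold change -0.57, adjusted p 0.00029). *Gatb* was higher, at 14.5, 20.9 and 17.8 against 25.6, 25.8 and 28.2 (log2 fold change 0.57, adjusted p 0.00152), and *Gatc* had a log2 fold change of -0.053 (adjusted p 0.758). The *Gatc* value ran from -0.16 to 0.14 over the alternatives and was called in none of them. *Prorsd1*, related to the editing domain of bacterial prolyl-tRNA synthetases, was lower (log2 fold change -0.86, adjusted p 5.64e-05). *Pstk*, which phosphorylates the seryl-tRNA of selenocysteine that *Sars1* loads, was higher (0.83, adjusted p 0.00129).

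Of 21 genes for tRNA synthesis, maturation and export, 6 were higher, 28.6% against 27.7% of all genes, and 1 was lower. The largest changes among those called were in *Brf1*, a subunit of the initiation factor of RNA polymerase III (log2 fold change 0.59, adjusted p 1.14e-05), in *Xpot*, which exports tRNA from the nucleus (0.47, adjusted p 0.000326), and in *Elac1*, a tRNA processing nuclease (0.45, adjusted p 0.0228, but up to 0.135 in alternatives). These counts depended on the processing. When scaled to total reads 13 were higher and 0 lower, with median centring 2 were higher and 2 lower, and 3 were higher without Ctrl library 1, cKO library 2 or cKO library 3.

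All 5 cytoplasmic elongation factor genes listed were called lower, beside 25.0% of all genes, with a median log2 fold change of -0.55. When scaled to total reads (median -0.34), with quantile normalization and without the intensity trend 4 of them were, the exception being *Eef1b2*, which belongs with *Eef1d* and *Eef1g* to the complex that recharges eEF1A with GTP. *Eef1a1*, which brings charged tRNA to the ribosome, was at 2289, 2524 and 2357 normalised reads in Ctrl and at 1458, 1482 and 1555 in cKO-labelled libraries (log2 fold change -0.67, adjusted p 1.14e-07). This gene has near-identical processed copies, so its count is uncertain. *Eef1g* (-0.58, adjusted p 1.98e-05) and *Eef2*, which moves the ribosome along (-0.55, adjusted p 1.82e-06), were lower to a similar extent. Of 4 mitochondrial factors, *Tufm* (-0.59, adjusted p 4.31e-05) and *Tsfm* (-0.32, adjusted p 0.0161) were lower and *Gfm2* was higher (0.51, adjusted p 5e-05). The call of *Tsfm* was lost when scaled to total reads (adjusted p 0.362, the highest of its alternatives) and without Ctrl library 2, cKO library 1 or cKO library 2, which left *Tufm* as the 1 factor called lower.

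The list of eIF2α kinases, ATF4 and its partners and targets held 9 genes called higher and 3 lower of 14, or 64.3% and 21.4% beside 27.7% and 25.0% of all genes, with a median log2 fold change of 0.88. When scaled to total reads 10 were higher and 0 lower, and the lower calls of *Eif2ak1*, *Eif2ak3* and *Cebpg* were lost. *Atf4* was at 70.2, 86.7 and 73.4 normalised reads in Ctrl and at 196, 186 and 210 in cKO-labelled libraries (log2 fold change 1.36, adjusted p 6.54e-10). The largest synthetase change, 1.37 in *Cars1*, was similar in size, and a link between these genes was not tested. Larger log2 fold changes were found in *Asns* (3.31, adjusted p 1.18e-10), *Ddit3* (3.29, adjusted p 2.36e-14) and *Trib3* (3.15, adjusted p 2.5e-10). No synthetase reached the log2 fold changes of these 3 genes.

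**Figure D4:**
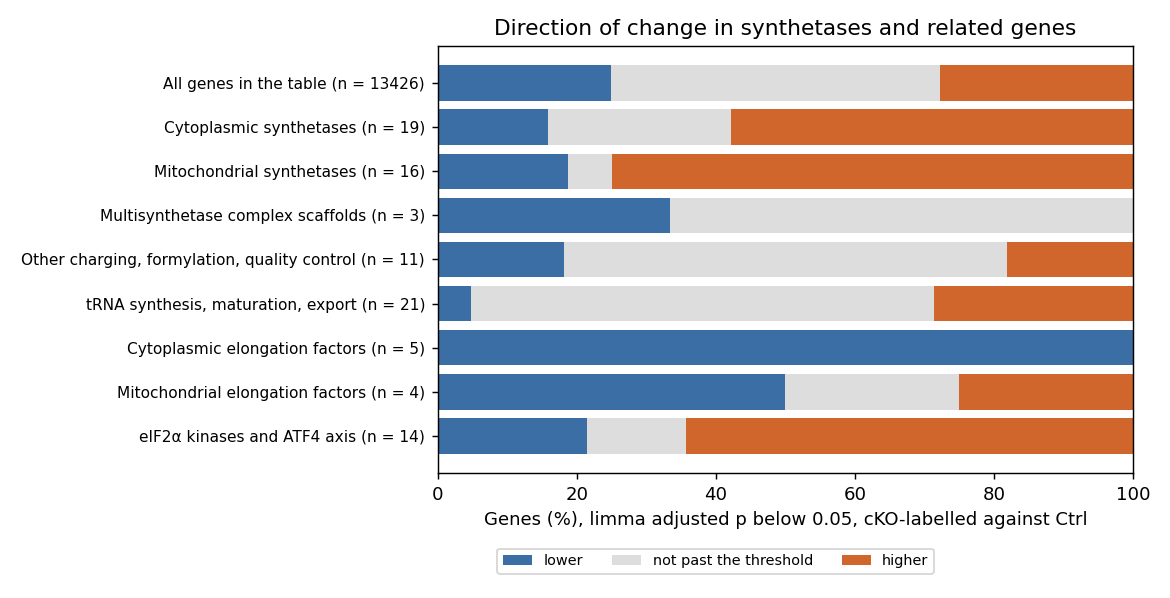
Share of genes, in percent, called lower, not past the threshold or called higher (limma, adjusted p below 0.05) in all genes, in both synthetase classes and in the related lists, with the number of genes in brackets. Both synthetase classes hold more genes called higher than the 27.7% of all genes, and all 5 cytoplasmic elongation factors are lower.

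Promoters of the synthetases were searched for short sequences known to bind factors of these pathways, because many of the genes rose together. RefSeq promoters (GRCm38.p6, 250 bases before to 50 bases after the start) were held for 12 of the 19 cytoplasmic and 14 of the 16 mitochondrial genes. None was held for *Cars1*, *Hars1*, *Lars1*, *Nars1*, *Rars1*, *Vars1*, *Wars1*, *Hars2* or *Pars2*. The motif comparison therefore leaves out *Cars1* (log2 fold change 1.37) and *Lars1* (0.96), which are among the largest rises. The core of the C/EBP-ATF response element bound by ATF4, TGATGNAA, read on either strand, was found in 5 of the 12 cytoplasmic promoters (41.7%) and in 0 of the 14 mitochondrial promoters. It was in 4.51% of the promoters of all 27025 genes and in 2.89% of those of the 10193 genes with a row. The promoters that hold it are shown from 125 bases before the start to base 25, 5′ to 3′ along the strand of the gene, with each match in capitals (TTNCATCA is the same motif on the other strand). They belong to *Aars1* (chr8:111033717-111033866, plus strand), *Gars1* (chr6:55037876-55038025, plus), *Iars1* (chr13:49682005-49682154, plus), *Tars1* (chr15:11399634-11399783, minus) and *Yars1* (chr4:129189778-129189927, plus).
Aars1: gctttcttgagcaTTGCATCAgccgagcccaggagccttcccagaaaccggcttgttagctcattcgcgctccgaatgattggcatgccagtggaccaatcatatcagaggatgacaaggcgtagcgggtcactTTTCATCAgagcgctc
Gars1: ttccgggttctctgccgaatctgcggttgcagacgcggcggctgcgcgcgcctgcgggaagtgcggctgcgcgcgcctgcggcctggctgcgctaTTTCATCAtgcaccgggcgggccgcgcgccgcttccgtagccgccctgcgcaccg
Iars1: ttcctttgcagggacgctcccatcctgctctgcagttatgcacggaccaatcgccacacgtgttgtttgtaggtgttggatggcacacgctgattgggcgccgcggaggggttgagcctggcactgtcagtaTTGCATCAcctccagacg
Tars1: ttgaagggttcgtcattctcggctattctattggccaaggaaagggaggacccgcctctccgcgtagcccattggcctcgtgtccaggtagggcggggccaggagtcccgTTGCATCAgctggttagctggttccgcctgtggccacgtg
Yars1: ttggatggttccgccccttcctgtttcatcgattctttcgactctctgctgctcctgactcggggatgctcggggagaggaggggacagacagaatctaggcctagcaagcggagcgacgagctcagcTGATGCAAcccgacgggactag

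Only matches from 250 bases before to 50 bases after the start could be found, so their closeness to the start is set by this window. Positions count from base 1 at the start of the promoter used, with no base 0. The matches begin at base -30 in *Gars1*, -15 in *Tars1*, 4 in *Yars1*, 8 in *Iars1* and 10 in *Aars1*, which has another at base -112. In *Aars1* and *Yars1* that start lies downstream of the first annotated base of the gene (111027778 and 129189734, plus strand). Their positions therefore do not count from the gene's first base. The matches of *Yars1*, *Iars1* and *Tars1* and the upstream match of *Aars1* have C at the open position (TGATGCAA), and those of *Gars1* and of *Aars1* near the start have A (TGATGAAA). Of these genes *Yars1*, *Iars1*, *Aars1* and *Tars1* were called higher and *Gars1* was not, with log2 fold changes from 0.16 to 1.10 and a median of 0.38. The 7 cytoplasmic genes with a promoter that lacks the motif in this window (*Eprs1*, *Farsa*, *Farsb*, *Kars1*, *Mars1*, *Qars1* and *Sars1*) ran from -0.50 to 0.98, with a median of 0.42 and 4 called higher. The ranges of both sets overlapped. The E-box CACGTG, bound by MYC with MAX, was in 4 of the 12 cytoplasmic promoters (*Aars1*, *Farsb*, *Iars1* and *Tars1*), in 1 of the 14 mitochondrial promoters (*Ears2*) and in 11.7% of the promoters of genes with a row. The cAMP response element TGACGTCA was in 0 of the 26 promoters and in 3.51% of the promoters of genes with a row. A match is a description of the sequence and not a binding site.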

How the data were processed

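Early LPre-B cells were sorted, ribosomal RNA was depleted and libraries were sequenced from a single end. Per the labels and the study's methods, the authors trimmed reads with cutadapt 4.0, aligned them to mm10 with HISAT2 as unstranded reads, counted them per gene with featureCounts 2.0.1 and used limma 3.48.0. The table the authors deposited holds 1 value per gene and library, a signal on a linear scale: the read count plus 0.5, scaled by that library's effective size. Whole reads were recovered for 99.995% of values, to within 0.01 read.

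Members were matched by Entrez ID to RefSeq symbols of GRCm38.p6, older symbols included. The members and the gene lists were chosen with earlier results of these data known. The test was limma 3.58.1 (R 4.3.3) with an intensity trend and robust variances, applied to log2(value + 1) with a group term alone. P-values were adjusted by Benjamini-Hochberg across the 13426 genes, and called means adjusted p below 0.05. This scale understates changes of low genes, and SE is the moderated standard error. Ratios were tested by exact two-sided permutation. The script was tested on simulated data. Exon overlaps and transcript lengths came from GENCODE. Named genes were the 35 members, *Upf1*, *Atf4*, *Ddit3* and at most 3 called genes per related list; the others, such as *Cd79a*, *Qrsl1*, *Gatc*, *Aimp1*, *Eef1e1*, *Eef1b2*, *Eif2ak1*, *Eif2ak3*, *Cebpg* and the genes that overlap members, were named after their values were seen. Alternatives were the replicate block, a pseudocount of 0.1, a minimum mean log2 value of 1, no trend, voom, edgeR 4.0.16 and DESeq2 1.42.0 on recovered reads, 3 other scalings and leaving out each library. P-values measure the spread between these libraries, which may be technical. No libraries agreed within counting noise. Some of the cell type markers that had been listed are not reported here, for a reason unrelated to their values.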

Additional observations from a re-analysis of the deposited data

How the results depend on the processing

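Over the 35 genes and 16 alternatives, 560 values were computed. Of these 513 kept both sign and call, 30 lost the call, 8 gained one and 9 changed sign, and 20 genes kept both throughout. The number of cytoplasmic genes called higher stayed between 10 and 13 and that of mitochondrial genes between 9 and 12. Counts of lower genes depended on the scaling. Cytoplasmic genes called lower were 1 without the intensity trend, 5 with median centring and 1 when scaled to total reads, and mitochondrial genes called lower were 1 when scaled to total reads, where all genes called lower were 1936. That scaling moved the median of all genes to 0.19, while the cytoplasmic median became 0.58 and the mitochondrial median 0.61. With edgeR and with voom the calls of both classes numbered 11 higher and 3 lower and 12 higher and 3 lower. Signs changed only in genes that were not called: *Farsb* (0.057), *Rars1* (0.015) and *Wars1* (0.18) when scaled to total reads, *Vars1* (-0.034) and *Fars2* (-0.046) with median centring, and *Wars1* (0.0078) after quantile normalization. Leaving out each library gave *Vars1* from -0.0091 (without Ctrl library 3) to 0.14, *Wars1* from -0.067 to 0.042 (without Ctrl library 2) and *Fars2* from -0.024 (without Ctrl library 2) to 0.18. The cause was not tested.

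Same-numbered libraries of the groups carry adjacent numbers in their library names. Their deviations from the group means had correlations of 0.0821, -0.0298 and -0.0208, which do not show pairing. With 3 libraries per group such values cannot exclude it. With the replicate block, 11 cytoplasmic genes were higher and 3 lower and 11 mitochondrial genes were higher and 3 lower. The number of pairs whose ratio was above every Ctrl library was 9 without Ctrl library 3 and 8 without any other single library. Depth per gene was not varied, so its part in the calls that were not made was not tested.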
